A study of Mus musculus with 9 samples.

Results

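The genes described here encode the nuclear subunits of the 5 complexes of oxidative phosphorylation. They were taken by name from the array's annotation: symbols that start with Nduf, a letter out of a, b, c, s and v, and a digit, the genes Sdha to Sdhd, and symbols that start with Uqcr, with Cox4 to Cox8 or with Atp5. Of 22206 transcript clusters on the array 84 matched, each under a symbol of its own, and 0 of them were pseudogenes. Complex I was represented by 35 genes, complex II by 4, complex III by 8, complex IV by 20 and complex V by 17. Ndufa4 and its relative Ndufa4l2 were placed in complex IV, where the Ndufa4 protein is found. Ndufb1 and Ndufb4c also match the rule and were not analysed here, and neither were the subunits that the mitochondrial genome encodes. Ndufb4 and Ndufb4b are nearly identical copies, so the split of signal between them is uncertain.

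Oxidative phosphorylation takes place in the inner mitochondrial membrane. Complex I passes electrons from NADH, and complex II from succinate, to coenzyme Q. Complex III hands them to cytochrome c and complex IV to oxygen, and the protons moved on the way drive complex V, the ATP synthase. Complex II is also an enzyme of the citrate cycle and moves no protons. Hepatocytes are rich in mitochondria, which burn the fatty acids that reach the liver and supply ATP for the synthesis of glucose and urea.

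Liver RNA of male mice was hybridised to Clariom S arrays, with 3 mice in each of 3 groups. The groups were non-obese C57BL/6JHamSlc-+/+ mice given vehicle, here called wild-type vehicle, obese C57BL/6JHamSlc-ob/ob mice given vehicle, and such ob/ob mice given VE, an extract of Vigna umbellata, at 100 mg/kg body weight by oral gavage. Mice were 6 weeks old at purchase, were kept on standard chow, and were treated for 42 days. Ob/ob mice lack working leptin, the fat cell hormone that limits food intake, from birth and in every tissue. No wild-type mice given the extract were analysed here, so an effect of the extract could be read only on the ob/ob background. The values are log2 expression as deposited, and a difference of 1 is a doubling.

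The array labelled ob/ob vehicle 3 and the array labelled wild-type vehicle 3 stood apart from their groups. Over all clusters their correlations with the other arrays of their group were 0.948 to 0.952 and 0.955, against 0.980 to 0.990 for the pairs of other vehicle arrays and 0.982 to 0.987 among the extract arrays. Their values were the least spread, with an interquartile range of 3.26 and 3.01 log2 against 3.36 to 3.85 elsewhere. All 8 hepatocyte markers were above the range of olfactory receptor genes, which liver does not use, on every array. Their mean was 17.2 on ob/ob vehicle 3, the lowest, and 17.5 to 18.3 on the other arrays. Wild-type vehicle 2 carried a striated muscle signal. The mean of 5 muscle markers was 10.02 there and 4.59 to 5.54 elsewhere, and the actin gene Acta1 was at 12.04 against 4.01 to 5.02. The T and B cell and adipocyte markers were not above the olfactory receptor range on any array. The part of these features in the differences below was not tested. For many results, values without ob/ob vehicle 3 or without both arrays 3 are given beside them or in the closing section.

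No subunit gene reached the top of the scale. The highest value of each array was at least 19.78, and 0 of 84 genes came within 1 log2 of it on any array. The nearest was Uqcrb, a small subunit of complex III, which lay 1.65 to 2.47 below the maximum. Cox7c, a small subunit of complex IV, lay 1.87 to 3.55 below it and Cox6c lay 2.00 to 5.25 below. Atp5a1, the alpha subunit of the catalytic head of ATP synthase, was 2.22 to 3.20 below. None of the differences reported here was therefore read from values at the ceiling of the array. At the other end, 73 genes were above the middle 95% of 1091 olfactory receptor genes on all 9 arrays, and 7 were not above it on any. These 7 were Cox4i2, Cox6b2, Cox7b2, Cox8b, Cox8c, Ndufa4l2 and Ndufv3.

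The first comparison asked how the subunits differed between ob/ob and wild-type liver, both on vehicle. The complex medians were above 0 for I, II, III and V and close to 0 for IV, but the signs for I and IV were not kept in every fit. That for I turned with quantile normalization and without both arrays 3 (median -0.065). That for IV turned, among other settings, with subtraction of array medians and with the interquartile range as covariate (median 0.0091). No single gene was called. The median difference over the 84 genes was 0.32 log2, beside -0.063 over all clusters, and 64 genes were higher and 20 lower. It was 0.017 after quantile normalization, with 44 genes higher and 40 lower. Without both arrays 3 of the vehicle groups it was 0.0225, with 43 higher and 41 lower. By complex, over all 9 arrays as deposited, the median difference was 0.28 for I, 1.44 for II, 0.55 for III, -0.032 for IV and 0.43 for V. After quantile normalization, which gives all arrays the same distribution, these medians were -0.064, 1.03, 0.094, -0.13 and 0.044, so the direction for complex I was not kept. The complex II median stayed above 1 there, and it was 0.68 with the interquartile range of each array as covariate, where 3 of its 4 genes were higher. With array medians subtracted, the median of all clusters moved to 0.057 and the complex medians were 0.40, 1.56, 0.67, 0.088 and 0.55, which turned the direction of complex IV. In whole tissue, fewer cells of a type and less RNA per cell cannot be told apart.

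No single subunit gene passed the limma test. At an adjusted p under 0.05 (Benjamini-Hochberg over all clusters) 0 of 84 were called, where 2.96% of all clusters were. At the looser criterion of the design text, an unadjusted p under 0.05 and a fold over 1.1, 13 genes were higher, or 15.5% beside 10.3% of all clusters, and 1 was lower, or 1.19% beside 6.72%. After quantile normalization these counts were 7 higher and 8 lower. In 10 genes all 3 ob/ob vehicle values exceeded all 3 wild-type values, or 11.9% beside 9.71% of clusters. In 2 genes, Atp5j and Cox7b2, they lay below, or 2.38% beside 9.78%. Leaving out ob/ob vehicle 3, an array that was seen to stand apart, gave 9 called genes, or 10.7% beside 7.56% of clusters. Among them Atp5h, Cox4i1, Ndufa5 and Ndufa6 were lower in ob/ob vehicle and the others higher. Leaving out both arrays 3 gave 7, or 8.33% beside 7.86%, with Atp5h, Cox4i1 and Ndufa6 lower. Leaving out wild-type vehicle 1 gave 1, Atp5l, or 1.19% beside 3.99%. Array weights gave 10, or 11.9% beside 9.62%, with Cox4i1 and Ndufa6 lower. Since the arrays 3 were left out for their values, p-values without them describe the remaining arrays only.

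**Figure D1:**
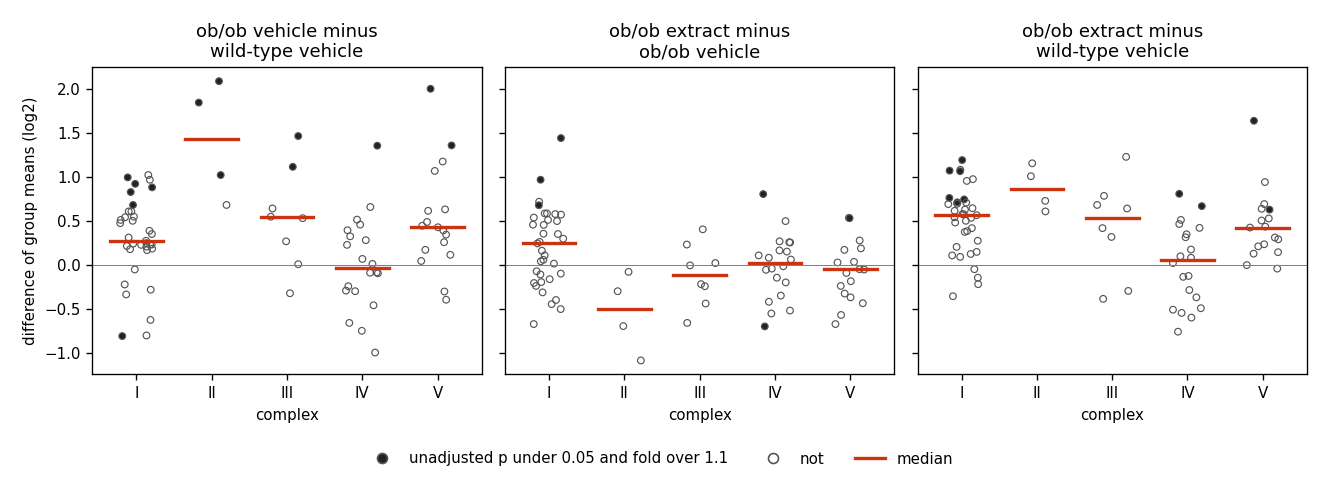
Difference of group means on the log2 scale for each of the 84 subunit genes, by complex, in the 3 comparisons. Filled points have an unadjusted limma p under 0.05 and a fold over 1.1, and red lines are medians. All 4 complex II genes lie above 0 in ob/ob vehicle against wild-type vehicle (median 1.44) and below 0 in ob/ob extract against ob/ob vehicle (median -0.49).

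Complex I joins a catalytic core to many accessory subunits, and 5 of its 35 genes were higher at the looser criterion, or 14.3% beside 10.3%. Ndufa8, an accessory subunit on the side of the intermembrane space, was at 10.32, 10.36 and 10.22 in wild-type vehicle 1 to 3 and at 11.06, 11.37 and 11.13 in ob/ob vehicle 1 to 3. The groups did not overlap, and the spread within each was small. The difference was 0.89 (SE 0.23, unadjusted p = 0.00274, adjusted p = 0.0713). It was 0.92 without ob/ob vehicle 3 and 0.42 after quantile normalization, and over the 20 alternatives the adjusted p ran from 0.0254 to 0.396. Ndufa10, another accessory subunit, was at 11.54, 11.58 and 11.44 against 12.00, 12.40 and 13.16, a difference of 1.00 (SE 0.30, adjusted p = 0.116). Ndufb6, a membrane arm subunit, was higher by 0.83 (SE 0.29, adjusted p = 0.168). Ndufs6, which binds zinc, was higher by 0.93 and by 0.39 without ob/ob vehicle 3, whose value of 14.45 was the highest of the 9. Ndufv1, the core subunit that binds NADH, was higher by 0.69 (SE 0.27, adjusted p = 0.222).

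One complex I gene met the looser criterion in the other direction. Ndufa6, an accessory subunit of the matrix arm, was at 14.57, 14.43 and 14.21 in wild-type vehicle and at 13.16, 13.35 and 14.29 in ob/ob vehicle. The first and second ob/ob arrays were below every wild-type array and the third lay among them. The difference was -0.80 (SE 0.31, adjusted p = 0.219), and without ob/ob vehicle 3 it was -1.15 (SE 0.26, adjusted p = 0.0231). Over the 20 alternatives the adjusted p ran from 0.0166 to 0.527, and the direction was kept in each. Ndufa5, an accessory subunit of the matrix arm, was at 11.40, 12.24 and 12.59 in wild-type vehicle and at 10.25, 10.91 and 13.21 in ob/ob vehicle, where the third array was the highest of the 9. Its difference was -0.62 (SE 0.63, adjusted p = 0.684), or -1.50 (SE 0.37, adjusted p = 0.0353) without that array, and it ranged from -1.50 to 0.68 over the alternatives.

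Complex II had the largest median difference of the 5 complexes. It holds the flavoprotein Sdha and the iron-sulfur protein Sdhb, which oxidize succinate, and the membrane anchors Sdhc and Sdhd. Sdha was at 10.16, 9.41 and 9.01 in wild-type vehicle, at 12.25, 12.45 and 10.16 in ob/ob vehicle, and at 9.89, 10.79 and 10.94 in ob/ob extract. Sdhc was at 9.90, 9.14 and 8.60, at 11.66, 11.94 and 9.59, and at 9.70, 10.65 and 10.77 in the same order. In both genes ob/ob vehicle 1 and 2 were above all other arrays and ob/ob vehicle 3 was within the range of the wild type. Sdhd was at 11.21, 10.67 and 10.06, at 11.79, 11.91 and 10.30, and at 10.90, 11.38 and 11.50, with the same order of the ob/ob vehicle arrays. Sdhb was at 14.29, 13.53 and 12.91, at 14.31, 14.52 and 14.98, and at 13.60, 14.26 and 15.07. For Sdhb the groups on vehicle did not overlap, but the highest wild-type value was only just below the lowest ob/ob vehicle value.

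Against wild type, Sdha was higher in ob/ob vehicle by 2.09 (SE 0.58, unadjusted p = 0.00423, adjusted p = 0.0879), a fold of 4.27. Sdhc was higher by 1.85 (SE 0.59, adjusted p = 0.136), Sdhb by 1.03 (SE 0.43, adjusted p = 0.258) and Sdhd by 0.69. With all 9 arrays none of the 4 was called. Without ob/ob vehicle 3 Sdha was higher by 2.82 (SE 0.40, adjusted p = 0.00288) and Sdhc by 2.59 (SE 0.42, adjusted p = 0.00554). After quantile normalization of all 9 arrays the differences were 1.73 for Sdha and 1.45 for Sdhc. Over the 20 alternatives the adjusted p ran from 0.00271 to 0.270 for Sdha and from 0.00540 to 0.382 for Sdhc, with 3 calls each. All 4 complex II genes had their lowest value of the 9 arrays on wild-type vehicle 3, as 17.9% of all clusters did. Without both arrays 3 the differences were 2.56 for Sdha, 2.28 for Sdhc and 0.51 for Sdhb.

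**Figure D2:**
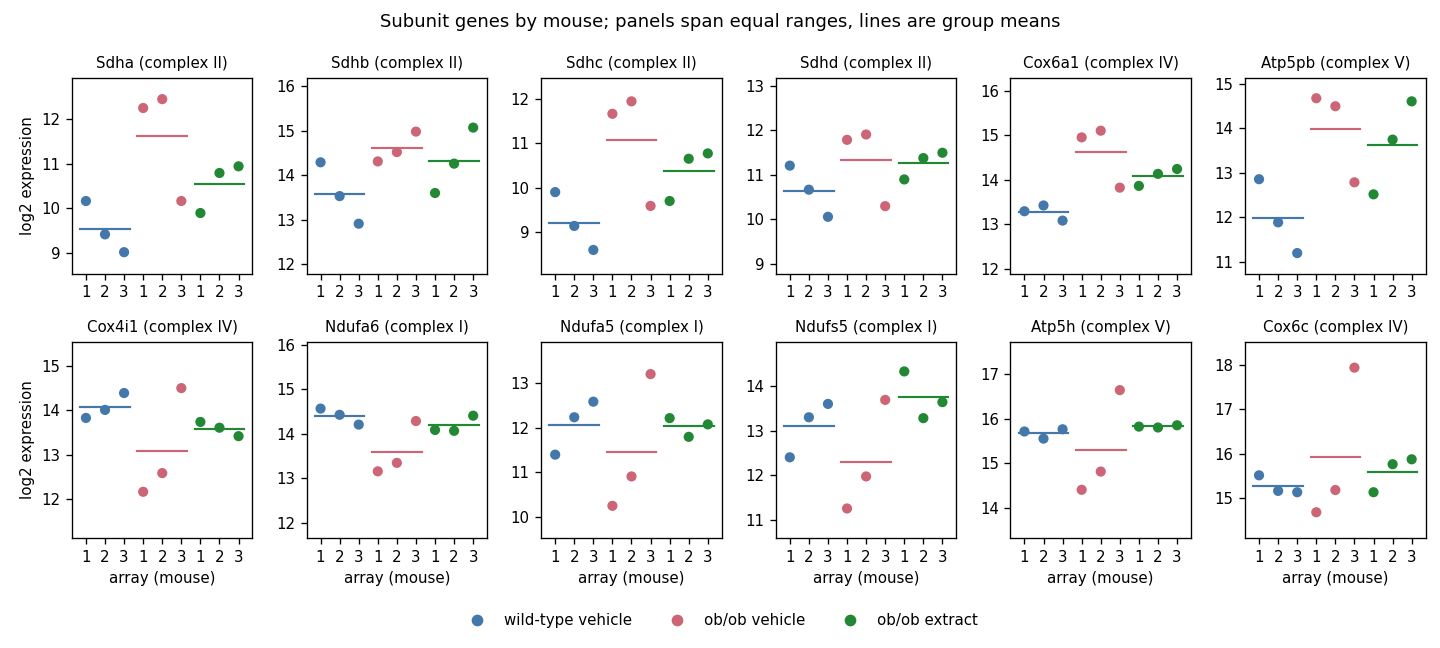
Log2 expression of 12 subunit genes on each array, with the array number within its group on the x axis, lines at group means and y axes of equal length. In Sdha and Sdhc ob/ob vehicle 1 and 2 lie at 11.66 or above and all other arrays at 10.94 or below, and in Cox4i1 and Atp5h the same arrays are the lowest, and the third ob/ob vehicle array is the highest of the 9.

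The promoters of the complex II genes are shown because this complex had the largest median difference, with those of Ndufa8, Uqcr10, Cox6a1 and Atp5l, the genes with the smallest p in complexes I, III, IV and V among those with a promoter entry. Each line gives the 170 bases before the RefSeq transcription start on assembly GRCm38.p6, 5′ to 3′ on the strand of the gene. Sdhc had no entry. Capitals mark matches to CGCATGCG, the core of the NRF1 motif, and to CCGGAAG, an ETS motif of the kind that GABP binds, searched on both strands. AAGATGG for YY1 and TGACGTCA for CREB were searched too.
Sdha, chr13:74350241-74350410, minus strand: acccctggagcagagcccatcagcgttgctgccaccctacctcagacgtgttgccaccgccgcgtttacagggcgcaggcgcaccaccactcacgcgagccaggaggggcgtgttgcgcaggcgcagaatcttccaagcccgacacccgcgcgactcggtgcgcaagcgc
Sdhb, chr4:140961101-140961270, plus strand: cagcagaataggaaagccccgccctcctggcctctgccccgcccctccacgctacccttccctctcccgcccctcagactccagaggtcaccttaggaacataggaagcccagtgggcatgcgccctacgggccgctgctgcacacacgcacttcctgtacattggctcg
Sdhd, chr9:50603850-50604019, minus strand: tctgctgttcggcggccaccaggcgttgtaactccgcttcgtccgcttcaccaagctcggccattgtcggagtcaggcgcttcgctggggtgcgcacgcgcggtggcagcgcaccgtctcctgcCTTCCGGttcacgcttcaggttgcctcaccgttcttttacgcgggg
Ndufa8, chr2:36049339-36049508, minus strand: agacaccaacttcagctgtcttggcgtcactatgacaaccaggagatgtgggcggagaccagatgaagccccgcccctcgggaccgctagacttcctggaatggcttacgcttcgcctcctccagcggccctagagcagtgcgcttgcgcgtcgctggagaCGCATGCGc
Uqcr10, chr11:4704345-4704514, minus strand: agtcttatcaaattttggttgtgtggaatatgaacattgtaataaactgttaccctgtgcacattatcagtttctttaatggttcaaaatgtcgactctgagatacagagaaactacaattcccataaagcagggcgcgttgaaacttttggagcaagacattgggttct
Cox6a1, chr5:115348959-115349128, minus strand: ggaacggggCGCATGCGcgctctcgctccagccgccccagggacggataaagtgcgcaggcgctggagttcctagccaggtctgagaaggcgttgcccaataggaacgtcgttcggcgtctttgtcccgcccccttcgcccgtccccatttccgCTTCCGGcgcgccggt
Atp5l, chr9:44920743-44920912, minus strand: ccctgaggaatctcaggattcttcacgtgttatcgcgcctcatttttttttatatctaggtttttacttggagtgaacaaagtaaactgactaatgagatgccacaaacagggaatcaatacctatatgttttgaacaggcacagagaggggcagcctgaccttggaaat
The NRF1 motif begins 9 bases before the start of Ndufa8 and 161 before that of Cox6a1. The ETS motif begins 46 bases before the start of Sdhd and 16 before that of Cox6a1, and that of Sdhb lies 6 bases after the start, outside the stretch shown. Atp5l holds the NRF1 motif 241 bases before the start and the ETS motif 212 before and 24 after it, all outside the stretch. Sdha and Uqcr10 hold none of the 4 motifs. G and C made up 62.4% to 68.2% of the stretches of Ndufa8, Cox6a1 and the complex II genes, 41.2% in Atp5l and 37.1% in Uqcr10.

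Over the whole set, 69 of the 84 genes had a RefSeq promoter of 300 bases, from 250 before to 50 after the start. The NRF1 motif was in 9 of them, or 13.0%, beside 2.07% of all 27025 genes with a promoter and 2.77% of the protein-coding ones. The ETS motif was in 17, or 24.6%, beside 9.93% and 12.9%. The YY1 motif was in 11, or 15.9%, beside 7.28% and 7.18%, and the CREB motif in 4, or 5.80%, beside 2.03% and 2.54%. At least 1 of the 4 motifs was in 34 genes, or 49.3%, beside 19.3% of all genes. A match is a description of the letters in this window and shows no binding. Of the 13 genes higher in ob/ob liver at the looser criterion, Atp5l, Cox6a1 and Ndufa8 held the NRF1 motif. The other members with that motif, Atp5g2, Atp5j, Atp5k, Ndufa11, Uqcr11 and Uqcrc1, were not among the 13. The ETS motif was held by Atp5l, Cox6a1, Ndufb6 and Sdhb of the 13, the YY1 motif by Atp5pb and Ndufs6, and the CREB motif by Ndufa10. Sdhc, also among the 13, had no promoter entry. A link between motifs and differences was not tested.

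In complex III the small subunit Uqcr10 stood at 8.99, 9.39 and 8.70 in wild-type vehicle and at 10.11, 10.39 and 9.94 in ob/ob vehicle. The groups did not overlap, and the difference of 1.12 (SE 0.32, adjusted p = 0.0972) was 1.22 without ob/ob vehicle 3 and 0.74 after quantile normalization. Uqcrc2, a core subunit, was at 8.69, 7.98 and 7.27 against 9.63, 10.31 and 8.41. Its ob/ob vehicle 3 value lay within the wild-type range. The difference was 1.47 (SE 0.56, adjusted p = 0.213), and 1.99 (SE 0.52, adjusted p = 0.0427) without that array. Over the 20 alternatives the adjusted p ran from 0.0372 to 0.280 for Uqcr10 and from 0.0286 to 0.686 for Uqcrc2. Uqcr11, another small subunit, was higher by 0.65 (SE 0.29, adjusted p = 0.294) with no overlap. The Rieske iron-sulfur protein Uqcrfs1 was at 11.92, 10.80 and 10.49 against 12.19, 12.27 and 10.41, so that here too the third ob/ob array was apart.

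Complex IV held large differences in opposite directions. Cox6a1, the form of subunit VIa used in liver, was at 13.29, 13.42 and 13.08 in wild-type vehicle and at 14.95, 15.10 and 13.82 in ob/ob vehicle. The groups did not overlap. The difference of 1.36 (SE 0.33, unadjusted p = 0.00208, adjusted p = 0.0615) had the smallest p of the 84 genes, and was 1.76 (SE 0.25, adjusted p = 0.00310) without ob/ob vehicle 3 and 0.91 after quantile normalization. Cox4i1, the main form of subunit IV, was at 13.83, 14.01 and 14.39 against 12.17, 12.59 and 14.50. The first and second ob/ob arrays were the lowest of all 9 and the third was the highest. The difference was -0.99 (SE 0.50, adjusted p = 0.357), and -1.70 (SE 0.28, adjusted p = 0.00561) without ob/ob vehicle 3. When the interquartile range of the arrays entered the model it was 0.00782, so the direction was not kept in every fit. Over the 20 alternatives the adjusted p ran from 0.00300 to 0.214 for Cox6a1 and from 0.00561 to 0.993 for Cox4i1.

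In complex V 2 genes passed the looser criterion. Atp5l, subunit g of the membrane part, was at 11.76, 10.33 and 10.31 in wild-type vehicle and at 11.92, 11.84 and 12.73 in ob/ob vehicle. The groups did not overlap, with a narrow gap set by wild-type vehicle 1. The difference was 1.36 (SE 0.41, adjusted p = 0.112), and 1.84 (adjusted p = 0.0176) without wild-type vehicle 1. Atp5pb, subunit b of the peripheral stalk, was at 12.86, 11.89 and 11.20 against 14.68, 14.50 and 12.79. The third ob/ob array was again within the wild-type range, and the difference was 2.01 (SE 0.64, adjusted p = 0.135), or 2.61 (SE 0.58, adjusted p = 0.0233) without it. Atp5a1 was higher by 0.62 (SE 0.29, adjusted p = 0.307). Atp5h, subunit d of the stalk, was at 15.71, 15.55 and 15.76 against 14.40, 14.81 and 16.64. Its difference was -0.39 (SE 0.47, adjusted p = 0.740) with all arrays and -1.07 (SE 0.25, adjusted p = 0.0277) without ob/ob vehicle 3. Over the 20 alternatives the adjusted p ran from 0.0176 to 0.304 for Atp5l, from 0.0156 to 0.405 for Atp5pb and from 0.0277 to 0.984 for Atp5h, whose difference ran from -1.07 to 0.43.

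**Figure D3:**
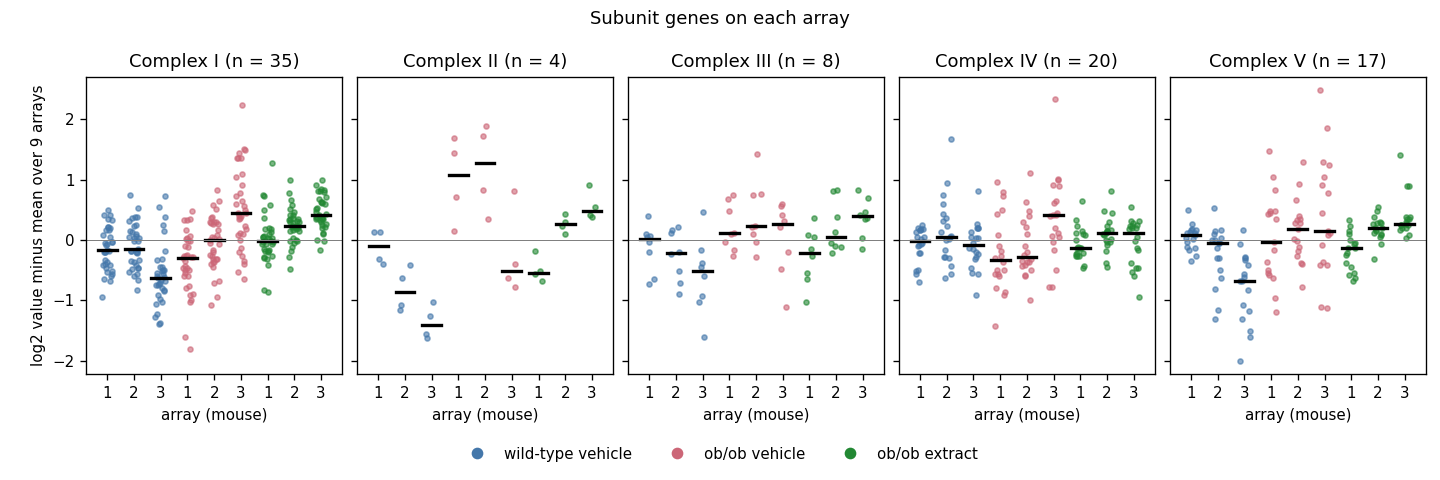
Log2 value minus the mean over the 9 arrays for every subunit gene, by complex and array, with black lines at the median. The complex II medians are 1.08 and 1.28 on ob/ob vehicle 1 and 2 but -0.51 on ob/ob vehicle 3, while the complex I median is 0.45 on ob/ob vehicle 3, and wild-type vehicle 3 has the lowest median in complexes I, II, III and V.

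Many of these genes split the ob/ob vehicle group. On ob/ob vehicle 3, 20 of 84 genes were at least 1 log2 above both other arrays of the group, or 23.8% beside 7.76% of all clusters, and 11 were at least 1 log2 below, or 13.1% beside 8.68%. On ob/ob vehicle 1 and 2 no member was so far from the rest of its group in either direction. The 20 genes included 11 of complex I, 4 of complex IV and 5 of complex V. The 11 genes included 3 of the 4 of complex II. Ob/ob vehicle 3 gave the highest value of the 9 arrays for 30 genes, or 35.7% beside 15.9% of clusters. Wild-type vehicle 3 gave the lowest for 38, or 45.2% beside 17.9%, among them 21 of complex I.

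The genes with the widest spread within groups were Atp5md, a small membrane subunit of ATP synthase, and Cox6c. Atp5md was at 13.32, 13.64 and 16.38 in ob/ob vehicle, at 14.06, 13.77 and 12.29 in wild-type vehicle and at 13.27, 14.28 and 14.10 in ob/ob extract. Cox6c was at 14.68, 15.18 and 17.93, at 15.51, 15.16 and 15.13, and at 15.13, 15.76 and 15.87. In both the third ob/ob vehicle array was the highest of the 9. Ndufb4 and Ndufb4b, the near-identical pair, were at 12.53, 13.12 and 15.76 and at 11.32, 11.99 and 13.79 on the ob/ob vehicle arrays. Uqcrfs1, Cox8a, Atp5d and Atp5g2 went the other way, with ob/ob vehicle 3 at 10.41, 13.57, 10.91 and 10.50, below every other array of both ob/ob groups. The hepatocyte markers Tat, Hnf4a, Apob and Serpina1a had their lowest value of the 9 arrays there, at 13.31, 9.58, 19.15 and 19.38. The other hepatocyte markers, Alb, Ttr, Apoa1 and Cps1, were not lowest there, at 19.93, 19.8, 18.79 and 17.72. Alb stood at the array maximum on all 9 arrays, so its values do not rank the arrays. Ttr stood at the maximum on every array except ob/ob vehicle 3, where the maximum was 19.93. Any part of hepatocyte content in the split was not tested.

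The second comparison asked how ob/ob liver differed between extract and vehicle. The median difference, ob/ob extract minus ob/ob vehicle, was 0.023 log2 over the 84 genes, beside -0.013 over all clusters. By complex it was 0.25 for I, -0.49 for II, -0.11 for III, 0.028 for IV and -0.047 for V. After quantile normalization these were 0.32, -0.37, 0.0050, 0.061 and 0.020, with the directions of complexes III and V turned. Limma called 0 of 84 genes at an adjusted p under 0.05, and 0% of all clusters. At an unadjusted p under 0.05, 5 genes were higher, or 5.95% beside 3.56% of clusters, and 1 was lower, or 1.19% beside 2.90%. The groups did not overlap in 6 genes that were higher, or 7.14% beside 7.47%, and in 5 that were lower, or 5.95% beside 6.08%. The members' shares without overlap were thus close to those of the array as a whole. Without ob/ob vehicle 3 the median was 0.25 and still 0 members were called, beside 0.230% of clusters. Without both arrays 3, 5 were called, or 5.95% beside 1.62%. Array weights gave 0, beside 0.477%.

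Of the 5 genes higher with the extract at an unadjusted p under 0.05, 3 belong to complex I. Ndufs5, an accessory subunit, was at 11.25, 11.97 and 13.69 in ob/ob vehicle and at 14.33, 13.28 and 13.64 in ob/ob extract. The ranges overlapped through ob/ob vehicle 3, and the difference was 1.45 (SE 0.57, adjusted p = 0.765), or 2.14 without that array (adjusted p = 0.0770) and without both arrays 3 (SE 0.38, adjusted p = 0.0229). Ndufb7, which faces the intermembrane space, was at 7.78, 8.13 and 8.58 against 9.31, 9.10 and 9.0, a difference of 0.97 (SE 0.38, adjusted p = 0.765). Wild-type vehicle 2, at 9.33, was also high for this gene, and the others of that group were at 7.91 and 8.08. Ndufb3, a membrane arm subunit, was at 8.60, 8.69 and 8.26 against 9.20, 9.07 and 9.33. Its groups did not overlap and the difference was 0.68 (SE 0.30, adjusted p = 0.767).

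The remaining genes of that count were in complexes IV and V. Cox7b, a small subunit of complex IV, was at 14.87, 15.36 and 15.84 in ob/ob vehicle and at 16.37, 16.21 and 15.92 in ob/ob extract. The groups were separated by a narrow gap, and the difference was 0.81 (SE 0.29, unadjusted p = 0.0180, adjusted p = 0.741). Atp5j, coupling factor 6 of the stalk, was at 12.78, 12.76 and 13.07 against 13.48, 13.24 and 13.50, a difference of 0.54 (SE 0.22, adjusted p = 0.765). The 1 gene that was lower, Cox8c, was not above the olfactory receptor range on any array. Uqcrh, the hinge protein of complex III, was lower by 0.65 (SE 0.31, adjusted p = 0.775) with no overlap, and Uqcrb was higher by 0.41 (SE 0.25, adjusted p = 0.830). Over the 20 alternatives the adjusted p for Ndufs5 ran from 0.0229 to 0.990, with 1 call.

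Complex II was lower with the extract than in ob/ob vehicle in all 4 genes, within the spread of the arrays. The difference was -1.08 for Sdha (SE 0.58, adjusted p = 0.796), -0.69 for Sdhc (SE 0.59, adjusted p = 0.864) and -0.29 for Sdhb (SE 0.43, adjusted p = 0.931). Quantile normalization left 1 of the 4 genes above 0 and 3 below. Without ob/ob vehicle 3 Sdha differed by -1.81 (SE 0.40, adjusted p = 0.105) and Sdhc by -1.43. Without both arrays 3 the fit gave the same difference for Sdha with a smaller SE of 0.35, and it was called (adjusted p = 0.0311). In that fit Cox4i1, Atp5h and Ndufa5, which were lowest on ob/ob vehicle 1 and 2, were higher with the extract by 1.21, 1.22 and 1.45. Their adjusted p values there were 0.0417, 0.0359 and 0.0484, against 0.883, 0.866 and 0.895 with all 9 arrays. Sdha and these 3 genes were called in 1 of the 20 alternatives each, and their highest adjusted p ranged from 0.990 to 0.998. Both comparisons above use the ob/ob vehicle arrays, so a high or low value there moves both in opposite directions.

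The third comparison set ob/ob extract against wild-type vehicle, with no ob/ob vehicle array among the 2 groups. The median difference was 0.44 log2 over the 84 genes, beside -0.047 over all clusters, and 68 genes were higher. It was 0.21 after quantile normalization, with 53 genes higher and 31 lower. Without both arrays 3 of the vehicle groups it was 0.29, with 62 higher and 22 lower. By complex, over all 9 arrays as deposited, the median difference was 0.57 for I, 0.87 for II, 0.54 for III, 0.057 for IV and 0.43 for V. After quantile normalization the medians were 0.26, 0.58, 0.34, -0.13 and 0.11, so that complex IV alone changed direction. With array medians subtracted, the median of all clusters was 0.092 and the complex medians were 0.71, 1.01, 0.67, 0.20 and 0.57. Limma called 0 of 84, beside 1.29% of clusters. It also called 0 without ob/ob vehicle 3 (beside 2.69%), without wild-type vehicle 1 (1.88%), without both arrays 3 (2.68%) and with array weights (3.58%). At the looser criterion 10 were higher, or 11.9% beside 8.21%, and 0 were lower, beside 5.82%. After quantile normalization 3 were higher and 1 was lower.

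The groups did not overlap in 22 genes that were higher with the extract than in wild type, or 26.2% beside 11.1% of all clusters. Of these, 13 were in complex I, which is 37.1% of its genes. In 2 genes, Cox4i1 and Cox6b2, the extract values were all lower, or 2.38% beside 10.6%. Ndufs1, the large iron-sulfur subunit of the complex I core, was at 10.82, 10.29 and 9.40 in wild-type vehicle and at 10.95, 11.76 and 11.39 in ob/ob extract. The difference was 1.20 (SE 0.38, adjusted p = 0.187). Ndufb3 was at 8.09, 8.72 and 7.56 against the extract values given above, higher by 1.08 (SE 0.30, unadjusted p = 0.00503, adjusted p = 0.143). In both genes wild-type vehicle 3 was the lowest of the 9 arrays, and without both arrays 3 the differences were 0.81 and 0.80. Ndufa10 was higher by 0.77 (SE 0.30, adjusted p = 0.285).

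Outside complex I the extract group was also above wild type in Cox6b1, a subunit that faces the intermembrane space. It was at 12.18, 12.42 and 12.41 in wild-type vehicle and at 13.02, 12.77 and 13.24 in ob/ob extract, with no overlap and a difference of 0.67 (SE 0.29, adjusted p = 0.340). Cox6a1 was at 13.86, 14.13 and 14.24 with the extract, above all wild-type values, a difference of 0.81 (SE 0.33, adjusted p = 0.311). It lay below ob/ob vehicle 1 and 2 and just above ob/ob vehicle 3. Atp5pb was at 12.52, 13.75 and 14.61 with the extract, higher than wild type by 1.64 (SE 0.64, adjusted p = 0.280) with overlap. Atp5k, subunit e of the membrane part, was higher by 0.63 (SE 0.28, adjusted p = 0.348). In complex III, Uqcrc2 was higher by 1.23 (SE 0.56, adjusted p = 0.360) and Uqcr11 by 0.65 (SE 0.29, adjusted p = 0.356). Sdhc was higher by 1.16 (SE 0.59, adjusted p = 0.419) and Sdha by 1.01 (SE 0.58, adjusted p = 0.466), while the complex II median was 0.051 once the interquartile range of the arrays entered the model, with Sdha at -0.00139.

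Several complex IV subunits have a tissue-restricted relative, and in this liver the relatives were dim. Cox4i2, the lung form of subunit IV, was between 4.4 and 5.44 on the 9 arrays, and Cox6b2, the testis form of VIb, between 2.15 and 3.68. Cox7b2, Cox8b and Cox8c stayed between 3.28 and 5.67, and Ndufa4l2, which rises in hypoxia, between 3.26 and 4.70. None of these was above the olfactory receptor range on any array, while Cox4i1, Cox6b1, Cox7b, Cox8a and Ndufa4 were above it on every array. The heart and muscle forms Cox6a2 and Cox7a1 were not above it on 8 and 4 of the 9. Cox6a2 was at 6.40 on wild-type vehicle 2 and between 4.14 and 5.15 on the others, and Cox7a1 was highest on that array too, at 6.46 against 5.12 to 6.13. This was the array with the raised muscle markers Acta1, Myh4 (10.83 against 2.87 to 4.09), Mb (9.81 against 4.93 to 6.21) and Tnnt3 (10.26). The remaining muscle marker, Ckm, was at 7.14 there and highest on wild-type vehicle 3, at 7.42. The part of muscle RNA in these values was not tested.

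**Figure D4:**
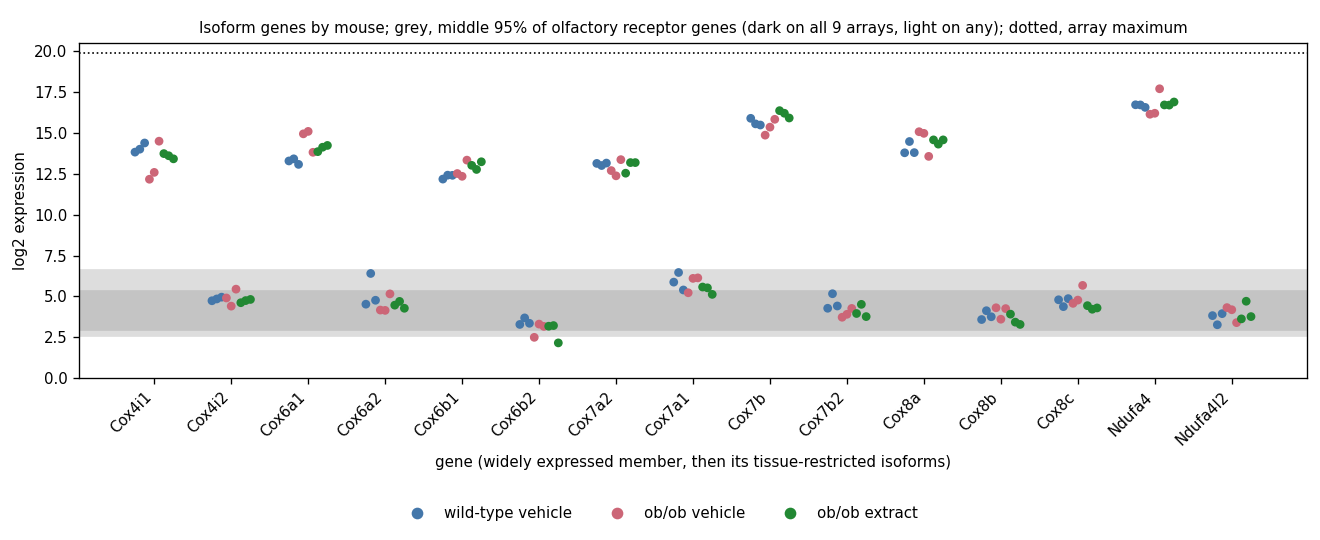
Log2 expression of complex IV subunits and their tissue-restricted relatives on the 9 arrays, by group. Grey bands mark the middle 95% of olfactory receptor genes and the dotted line the array maximum; the relatives lie in or near the bands and wild-type vehicle 2 is the highest point of Cox6a2 (6.40) and Cox7a1 (6.46).

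Other genes of the pathway were read from lists of helpers and partners of the complexes. In ob/ob vehicle against wild type, 1 of 46 measured assembly factors was called and higher, beside 2.96% of all clusters called. The looser criterion was met upward by 13 and downward by 0, beside 10.3% and 6.72% of clusters, and the median difference was 0.47. The called gene was Acad9, which helps assemble complex I, at 7.92, 7.44 and 7.97 in wild type and 8.81, 8.87 and 8.91 in ob/ob vehicle (difference 1.09, SE 0.24, adjusted p = 0.0445). The groups were well apart, with little spread among the ob/ob arrays, array 3 included. Of 16 electron carriers and coenzyme Q synthesis genes, 2 were called, both higher, 6 met the looser criterion upward, and the median was 0.70, beside the same shares of clusters. Coq7, a hydroxylase of coenzyme Q synthesis, rose by 1.32 (SE 0.31, adjusted p = 0.0483) and Coq2, the prenyltransferase of that pathway, by 1.66 (SE 0.38, adjusted p = 0.0483). After quantile normalization these 3 genes stayed higher but were not called, with adjusted p = 0.180 for Acad9, 0.130 for Coq7 and 0.0519 for Coq2. With the replicate number as a block Acad9 (adjusted p = 0.0732) and Coq7 (adjusted p = 0.0567) were not called. Of the 20 alternatives 8 called Acad9, 7 called Coq7 and 8 called Coq2, and the highest adjusted p was 0.180, 0.157 and 0.175. Without ob/ob vehicle 3 the adjusted p was 0.0434 for Acad9, 0.0526 for Coq7 and 0.00692 for Coq2. Leaving out any other array except wild-type vehicle 1 ended the Coq2 call, and leaving out any array but ob/ob vehicle 3 ended that of Acad9. The call of Coq7 was kept without wild-type vehicle 1 or ob/ob extract 3.

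Of 12 citrate cycle genes 2 were called, both higher in ob/ob vehicle (beside 2.96% of clusters called), 5 met the looser criterion upward (beside 10.3%), and the median was 0.84. Suclg2, a subunit of succinyl-CoA ligase, which makes the substrate of complex II, was at 13.53, 13.33 and 12.84 in wild type, at 14.35, 14.55 and 14.55 in ob/ob vehicle, and at 14.95, 14.79 and 14.62 in ob/ob extract. Both ob/ob groups were above wild type with no overlap. The difference was 1.25 (SE 0.25, adjusted p = 0.0290) in ob/ob vehicle and 1.55 (SE 0.25, adjusted p = 0.0151) in ob/ob extract. After quantile normalization the first was 0.83 and no longer called (adjusted p = 0.109). Of the 20 alternatives 11 called the first and 17 the second, with adjusted p up to 0.112 and 0.0891. The first call was lost without wild-type vehicle 2 or 3, ob/ob vehicle 1 or 2, or ob/ob extract 2, and the second without wild-type vehicle 2, ob/ob extract 1 or ob/ob extract 2. Dlst, a subunit of the 2-oxoglutarate dehydrogenase complex, rose by 1.43 (SE 0.29, adjusted p = 0.0314). It was called in 11 of the 20 alternatives, with adjusted p from 0.00278 to 0.125, and among fits without 1 array only in those without wild-type vehicle 1 or ob/ob vehicle 3. Ogdh, the first enzyme of that complex, differed by 1.08 (adjusted p = 0.0559) in ob/ob vehicle against wild type and by -1.13 (SE 0.26, unadjusted p = 0.00134, adjusted p = 0.593) in extract against vehicle.

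None of 76 genes of the mitochondrial ribosome was called, 22 met the looser criterion upward and 1 downward (beside 10.3% and 6.72% of clusters), and the median difference was 0.44. Among 13 regulators of mitochondrial gene expression 0 were called, and the median was 0.06. The looser criterion was met upward by 2, Tfam and Tfb2m, and downward by 1, Perm1 (beside 10.3% and 6.72% of clusters). Perm1 was lower in ob/ob vehicle than in wild type, with a difference of -1.07 (SE 0.40, adjusted p = 0.197). That gene was called in 1 of the 20 alternatives. Tfam, which packages mitochondrial DNA and helps start its transcription, was higher by 1.02 (SE 0.31, adjusted p = 0.122) in ob/ob vehicle and by 1.25 (SE 0.31, adjusted p = 0.101) in ob/ob extract, both against wild type. Tfb2m, a partner of Tfam, was higher in ob/ob extract by 1.69 (SE 0.39, adjusted p = 0.0778). Of 9 carriers and uncoupling genes 0 were called. In extract against ob/ob vehicle no gene of these lists was called, and the medians lay between -0.12 and 0.26. In extract against wild type Coq7 was called as well as Suclg2 (beside 1.29% of clusters), higher by 1.70 (SE 0.31, adjusted p = 0.0271), or 1.43 (adjusted p = 0.0617) after quantile normalization. It was called in 15 of the 20 alternatives, with adjusted p from 0.00913 to 0.154, and lost without wild-type vehicle 2 or 3 or ob/ob extract 1 or 2.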

How the data were processed

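Liver RNA of 9 mice was hybridised to 9 one-colour arrays. Per the labels and the design text, the values the authors deposited are on the log2 scale and come from SST-RMA, a robust multi-chip average after a signal space transformation, run in Transcriptome Analysis Console (version 4.0.2). The array's genome build is not given in the sources used here. Detection calls were not used here. Symbols came from GEO's platform annotation, which names 19572 clusters, and all of these matched RefSeq GRCm38.p6.

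Groups were compared with limma 3.58.1 (lmFit and eBayes, default settings) in R 4.3.3, with 1 mean per group over all 9 arrays and all 22206 clusters, 6 residual and 4.45 prior degrees of freedom, and Benjamini-Hochberg adjustment. The design text states a variance analysis with empirical Bayes moderation. Scripts were tested on simulated data.

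Genes named are, per complex and comparison, up to 3 with the smallest p, those called, the isoform pairs, the 2 with the widest spread within groups, and up to 3 per pathway list; others were chosen after their values were seen. The members, lists and tests were chosen with earlier results of these data known. With 3 arrays a group, the number of mice limits the precision, and p-values measure the spread between these samples.

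Replicate numbers recur across groups without a stated meaning. As a check of pairing, the deviations from the group mean of arrays with the same number correlated at 0.256, 0.262 and 0.450 between the vehicle groups, which meets the rule used for pairing, and between -0.208 and 0.0157 in the comparisons with the extract. Alternatives were quantile normalization, subtraction of array medians, array weights, a trended robust spread, 2-group fits, filters on the lowest 30% and 50% of clusters, a replicate block, the interquartile range as a covariate, and fits without single arrays or without both arrays 3. Motifs were searched in RefSeq promoters.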

Additional observations from a re-analysis of the deposited data

How the results depend on the processing

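In ob/ob vehicle against wild type the count of called subunit genes, 0 with all arrays, was 10 with array weights, 7 without both arrays 3 of the vehicle groups, 1 without the lowest 50% of clusters, and 0 to 9 when 1 array was left out. Genes higher at the looser criterion (13) were 7 after quantile normalization and 9 to 19 with 1 array left out. Genes lower (1) were 8 with array weights, 8 after quantile normalization, 10 without both arrays 3 and 0 to 7 with 1 array left out. The complex I median (0.28) was -0.064 after quantile normalization, -0.065 without both arrays 3 and 0.087 to 0.46 with 1 array left out. Complex III (0.55) was 0.094 after quantile normalization and 0.31 with the interquartile range as covariate (below, the spread covariate), complex IV (-0.032) -0.42 without both arrays 3 and -0.27 to 0.12 with 1 array left out, and complex V (0.43) 0.044 after quantile normalization and 0.12 to 0.59 with 1 array left out. Complex II (1.44) was 1.12 to 1.90 and complex III 0.36 to 0.62 with 1 array left out. The median over all members was 0.017 after quantile normalization, 0.0225 without both arrays 3 and 0.12 to 0.40 with 1 array left out. In extract against ob/ob vehicle the called count (0) was 5 without both arrays 3 and 0 whichever single array was left out. Genes higher (5) were 16 with array weights, 3 with a trended robust spread, 8 with the interquartile range as covariate, 8 after quantile normalization, 22 without both arrays 3, 3 without the lowest 50% of clusters and 0 to 18 with 1 array left out. Genes lower (1) were 8, 2, 0, 6, 0 and 0 under array weights, the spread covariate, only the 2 groups compared, without both arrays 3, without the lowest 30% and without the lowest 50% of clusters, and 0 to 4 with 1 array left out. The medians ran from -0.027 to 0.45, -1.01 to -0.15, -0.31 to 0.0092, -0.11 to 0.29 and -0.23 to 0.12 for complexes I to V and -0.11 to 0.25 over all members with 1 array left out. In extract against wild type the called count stayed 0 with any 1 array left out. Genes higher (10) were 20 with array medians subtracted, 18 with array weights, 5 with a trended robust spread, 18 with only the 2 groups compared, 3 after quantile normalization and 2 to 21 with 1 array left out. Genes lower (0) were 1 under each of array weights, quantile normalization and the spread covariate, 2 without both arrays 3 and 0 with any 1 array left out. The complex I median (0.57) was 0.26 after quantile normalization and 0.41 to 0.64 with 1 array left out. Complex II (0.87) was 0.051 with the interquartile range as covariate and 0.58 to 1.21 with 1 array left out, and complex IV (0.057) 0.20 with array medians subtracted, -0.13 after quantile normalization, 0.18 without the lowest 50% of clusters and -0.057 to 0.14 with 1 array left out. Complexes III and V were 0.37 to 0.60 and 0.19 to 0.59, and all members 0.29 to 0.55.

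Across the 20 alternatives the difference lay on both sides of 0 for 49 of the 84 genes in ob/ob vehicle against wild type, 45 in extract against ob/ob vehicle and 34 in extract against wild type. With the interquartile range as covariate Cox4i1 was at 0.00782 and Vdac2 at -0.072 in ob/ob vehicle against wild type, and Sdha at -0.00139 in extract against wild type. In extract against ob/ob vehicle Vdac2 was at -0.027 without both arrays 3 and at -0.027 to 0.75 with 1 array left out, with the lowest without ob/ob vehicle 3. Sdhb was at -0.67 to 0.062 with 1 array left out, above 0 only without extract array 1. The replicate block left 0 called subunit genes in each comparison and 13 higher and 1 lower in ob/ob vehicle against wild type; of the list genes named it ended the calls of Acad9 (adjusted p = 0.0732) and Coq7 (adjusted p = 0.0567) in that comparison. Using the mean of all clusters of a symbol changed no value, since each member has 1 cluster. The causes of these changes were not tested, except that fewer clusters enter the adjustment after a filter. Arrays carry no counts, so precision rests on 3 mice a group.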
